A study of Mus musculus with 4 samples.

Results

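The cytosolic ribosomal protein (RP) genes were the 88 protein-coding genes, of 19353 genes in the count table, whose symbol starts with Rpl followed by a digit or p, or with Rps followed by a digit, a or x, with the S6 kinase genes (Rps6k) left out. They comprised 54 genes with large-subunit names and 34 with small-subunit names. The choice used names only and no expression value. The rule also took in Rps19bp1, which encodes a binding partner of RPS19 and not a ribosomal protein, and Rpl7l1, whose product acts in ribosome assembly, and it passed over genes such as Fau and Rack1, which also encode ribosomal components.

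Muscle stem cells (MuSCs, or satellite cells) of the plantaris muscle were compared between sham surgery and overload. All mice carried Pax7-CreERT2:Rosa-YFP, in which a Cre recombinase that needs tamoxifen and is driven by the MuSC gene Pax7 switches on yellow fluorescent protein (YFP). Overload was made by cutting the Achilles tendon (tenotomy), which leaves the plantaris to carry the work of its synergists, and cells were taken 4 days later. YFP-positive cells were sorted at 100 cells per tube, with 2 libraries from sham muscle and 2 from overloaded muscle. The age of the mice is not given in the sources used here for these libraries, nor is it stated that replicate libraries stem from separate animals, so p-values measure only the spread between these libraries, which may be technical. RNA was counted by CEL-Seq2, which reads transcripts from their poly(A) ends and labels every captured molecule with a random barcode (a unique molecular identifier, UMI), so a count is a number of molecules and does not grow with transcript length. The sham libraries held 269683 and 260488 UMIs over all genes, and the overload libraries held 387955 and 483528 UMIs.

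A ribosome consists of a large and a small subunit, each built from ribosomal RNA and proteins that are mostly present in equal numbers of copies, so RP mRNAs are usually expressed together and are among the abundant mRNAs of most cells. In vertebrates, most RP mRNAs start with a cytosine followed by a run of pyrimidines, the 5′ terminal oligopyrimidine (TOP) motif, through which mTORC1 and Larp1 set how much of the mRNA is translated. Quiescent MuSCs are small cells with little RNA, and growth and division of stem cells are associated with increased ribosome production, much of which is set at the levels of ribosomal RNA synthesis and translation, which UMI counts of mRNA do not measure.

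The cells carried the markers of their label, although markers of other cell types were not absent. Pax7, the transcription factor that defines satellite cells, had 118 and 107 UMIs in the sham libraries and 108 and 137 UMIs in the overload libraries. Myf5, a myogenic factor of satellite cells, had 244 and 168 UMIs against 388 and 467 UMIs, and all 10 satellite cell markers passed the filter on low counts. By the edgeR test described below, 6 of the 10 were lower and 2 higher on the TMM scale (median log2 fold change -0.78), where 26.3% and 25.8% of all genes were. In UMIs per tube 4 rose and 2, Calcr and Chodl, fell (median 0.18), where 62% and 4.58% of all genes did. With offsets that take out a trend with abundance 4 were higher and 2 lower, where 20.7% and 21.6% of all genes were. The 6 cell cycle genes listed, led by the topoisomerase gene Top2a, summed to 3 and 9 UMIs in sham and to 406 and 507 UMIs in overload. The libraries of the sham group differed by more than counting error alone, with a chi-square of 1.31 per degree of freedom over 7474 genes. The overload libraries gave 1.5, and pairs across the groups gave 6.35 to 7.86.

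Start-site windows are shown for RP genes that stand out in the counts, namely Rps6 and Rps27l, which rose, Rpl14 and Rps21, which fell on every scale tested, and Rps27, the paralog of Rps27l. The windows run from 30 bases before to 20 bases after the RefSeq start (GRCm38.p6), 5′ to 3′ on the strand of the gene. Where the table lists more than 1 start, as for Rps27l and Rps21, the one nearest the GENCODE start of the gene is shown. Capitals mark CTTTC or CTTTT, letters that a TOP motif can hold. They lie at chr4:86857348-86857397 (minus strand), chr9:66946056-66946105 (plus), chr9:120571487-120571536 (plus), chr2:180257349-180257398 (plus) and chr3:90213629-90213678 (minus) in the order printed. Each window covers the upstream promoter edge and the first transcribed bases.
Rps6: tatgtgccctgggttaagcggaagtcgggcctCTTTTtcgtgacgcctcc
Rps27l: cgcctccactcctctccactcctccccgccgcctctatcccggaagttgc
Rpl14: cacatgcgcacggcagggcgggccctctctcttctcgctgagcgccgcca
Rps21: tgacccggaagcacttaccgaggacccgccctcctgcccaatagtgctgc
Rps27: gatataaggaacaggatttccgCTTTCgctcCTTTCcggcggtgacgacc

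CTTTC or CTTTT was found on the sense strand of this window in 24 of the 64 RP genes that matched the RefSeq table, 37.5%, against 13.7% of all 27025 genes with a window. On the opposite strand the shares were 12.5% and 13.2%. CCGGAAG, which ETS factors can bind, stood on either strand of the 300 bases around the start in 39.1% of RP genes and in 9.93% of all genes, and AAGATGGC in 9.38% and 3.19%. TATAAA was found on the sense strand in 3.13% and 3.19%. Tested RP genes with CTTTC or CTTTT in the window had a median log2 fold change of 0.18 in UMIs per tube (23 genes) and those without it 0.06 (37 genes).

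As a family, RP genes gave almost the same number of UMIs per tube of 100 cells in sham and in overloaded muscle, while the rest of the transcriptome gave more. Their summed UMIs were 11122 and 10629 in the sham libraries and 11374 and 11513 in the overload libraries. The groups did not overlap, but the means of 10875.5 ± 349 (SD, n = 2) and 11443.5 ± 98.3 (SD, n = 2) differed by 5.22%. The UMIs of all other genes were 1.67-fold higher, so that there were 23.3 and 23.5 other UMIs for each RP UMI in sham and 33.1 and 41.0 in overload.

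The RP share of the library therefore was lower in both overload libraries. It was 4.12% and 4.08% in sham (Wilson 95% intervals 4.05 to 4.20% and 4.01 to 4.16%) and 2.93% and 2.38% in overload (2.88 to 2.99% and 2.34 to 2.42%). The group means were 4.10% ± 0.0309 and 2.66% ± 0.389 (SD, n = 2 each), a ratio of 0.648. For both quantities the two-sided exact permutation test gave p = 0.33, the smallest that 2 against 2 libraries allow. The intervals cover counting error only. In bulk libraries, fewer cells of a type and less RNA per cell cannot be told apart. Neither can a larger RNA content, a better capture and a deeper sequencing of a tube. Similar RP UMIs per tube therefore do not establish similar RP mRNA per cell.

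**Figure D1:**
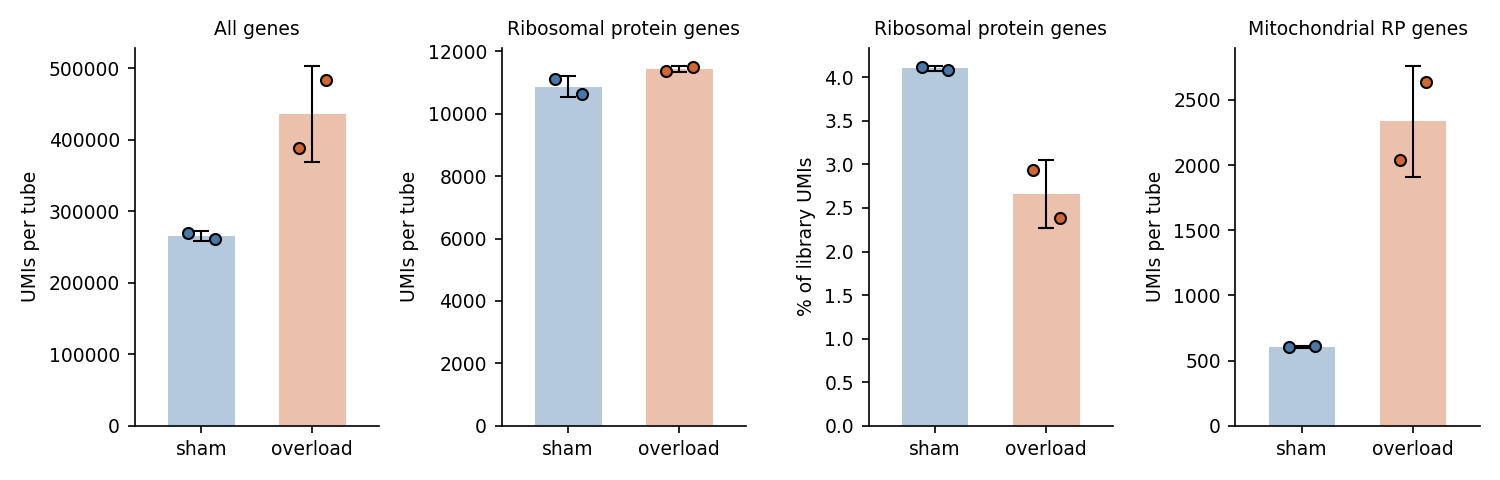
UMIs of all genes, UMIs of RP genes, RP share of the library in percent, and UMIs of mitochondrial RP genes, per tube of 100 cells. Points are libraries, bars are means and error bars are SD (n = 2 per group). RP UMIs stayed between 10629 and 11513 in all libraries while total UMIs went from at most 269683 to at least 387955.

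The proportion of the subunits was alike in the groups. Large-subunit genes summed to 6420 and 6216 UMIs in sham and 6568 and 6707 UMIs in overload. Small-subunit genes summed to 4702 and 4413 UMIs in sham and to 4806 UMIs in each overload library. The ratio of small to large subunit UMIs was 0.732 and 0.710 in sham and 0.732 and 0.717 in overload, with overlapping groups (exact permutation test, two-sided, p = 1).

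Of the 88 RP genes, 81 had enough UMIs to be tested, 48 of the large and 33 of the small subunit. Counts were compared with the edgeR quasi-likelihood test across 7228 genes, with Benjamini-Hochberg adjustment and a threshold of 0.1, on scales that answer different questions. TMM normalization sets each gene against the bulk of the other transcripts, the share of library divides by all UMIs, UMIs per tube applies no scaling to tubes of equal cell number, and the scale relative to the RP total sets each gene against its own family. The scale moved the median log2 fold change of all tested genes from 0.05 on the TMM scale to 0.30 as share of library and 1.01 in UMIs per tube.

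On the TMM scale, 63 RP genes were lower in overload, where 26.3% of all tested genes were, and 2 were higher, where 25.8% of all tested genes were. The 63 genes were 77.8% of the RP genes tested. The median log2 fold change of the RP genes was -0.88, with quartiles of -1.11 and -0.58, against 0.05 for all genes. Large-subunit genes had a median of -0.86 and small-subunit genes of -0.90. As share of the library, 58 RP genes were lower (19.3% of all genes were) and 7 were higher (35.4% of all genes were), with a median of -0.63. Normalised counts did not overlap between the groups in 66 RP genes that were lower, against 35.4% of all genes, and in 5 that were higher, against 37.5%.

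The lower calls depended on how abundance was treated. When a trend of fold change with abundance was first taken out by offsets fitted to all genes, 28 RP genes were lower, where 21.6% of all genes were, and 7 higher, where 20.7% of all genes were, and the median was -0.23. A further count took only the RP genes whose last 200 transcript bases share no stretch of 50 bases with another annotated gene. On the TMM scale 22 of these 29 were lower, where 26.3% of all genes were, and their median was -0.82.

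In UMIs per tube, most RP genes did not pass the test in either direction. A rise was found in 20 RP genes, 24.7%, where 62% of all tested genes rose, and a fall in 2, where 4.58% of all genes fell. Without the filter on low counts, 8 of the 88 rose and 1 fell, where 16.4% and 0.827% of all 19353 genes did. The median log2 fold change was 0.07, between a lowest value of -0.47 for Rpl14 and a highest of 2.95 for Rps6, against 1.01 for all genes. Group means lay within 1.2-fold of each other in 49 of the 88 genes. UMIs per tube did not overlap in 32 tested RP genes that were higher, against 72.7% of all genes, and in 17 that were lower, against 7.9%. The count of rises was 10 without sham replicate 1, 4 without sham replicate 2 and 3 without overload replicate 2, and the count of falls was 0 without each of these 3 libraries and 8 without overload replicate 1.

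**Figure D2:**
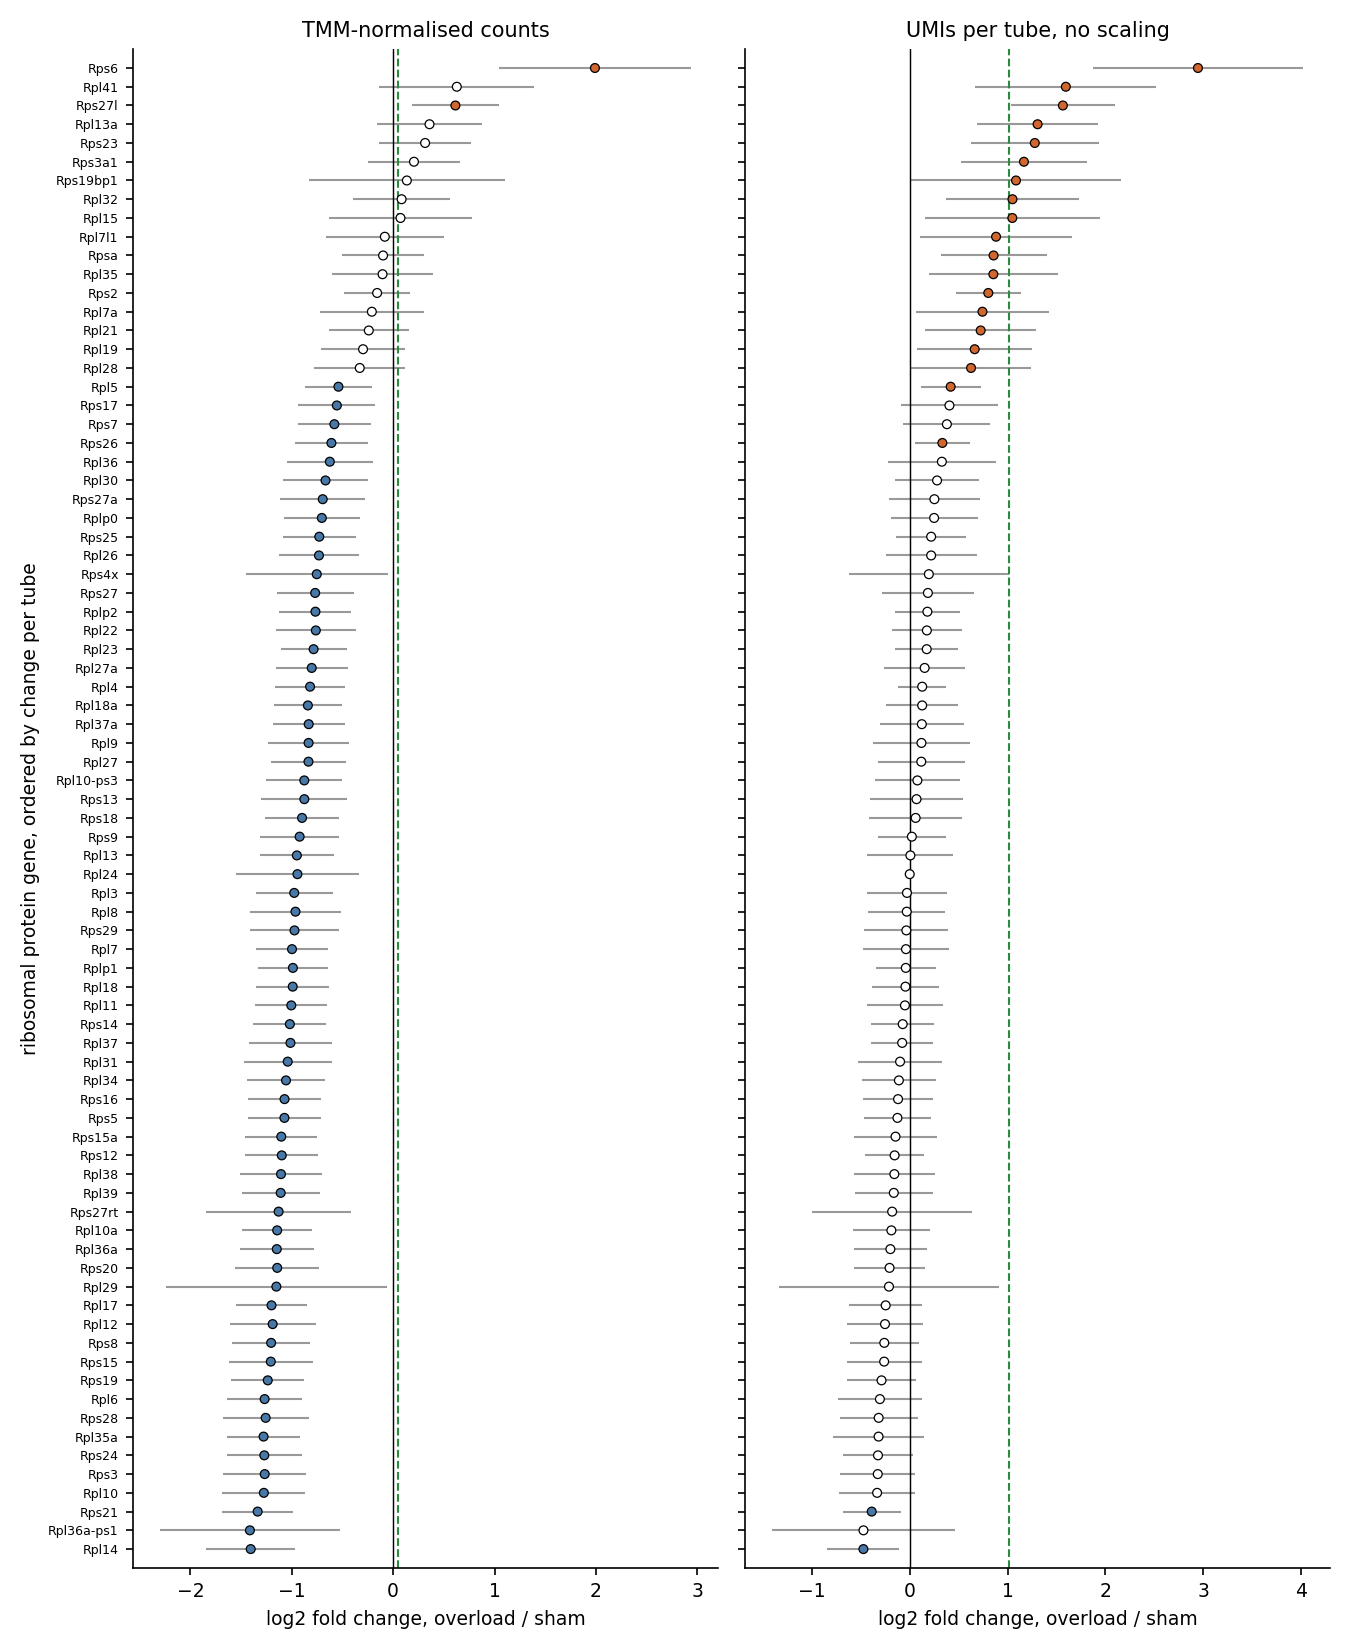
Log2 fold change (overload over sham) of 80 of the 81 tested RP genes with its 95% interval on the TMM scale (left) and in UMIs per tube (right), ordered by the change per tube. Orange points are higher and blue points lower past an adjusted p of 0.1, open points are not past it, the dashed line is the median of all 7228 genes, and Rpl24, with equal group sums per tube, has no interval there.

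The 5 most abundant RP genes were Rpl4, Rpl5, Rps26, Rps14 and Rpl37, all lower on the TMM scale. Rpl4, a large-subunit protein that lines the exit tunnel, had 517 and 490 UMIs in sham and 541 and 559 UMIs in overload. Its UMIs per tube differed by 0.13 ± 0.12 (log2 ± SE, adjusted p = 0.349), with a 95% interval from -0.12 to 0.37, while on the TMM scale it fell by 0.82 ± 0.16 (adjusted p = 0.00072). The groups of Rpl4 did not overlap on either scale, in opposite directions. With abundance offsets Rpl4 was called higher, at 0.34 (adjusted p = 0.0198).

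Rpl5, which binds 5S ribosomal RNA, had 333 and 279 UMIs against 368 and 450 UMIs. Rps26, a small-subunit protein at the mRNA exit, had 301 and 291 UMIs against 382 and 364 UMIs. Both rose per tube, by 0.42 ± 0.15 (adjusted p = 0.0203) and by 0.33 ± 0.13 (adjusted p = 0.04), by less than the median gene. Both were lower on the TMM scale, at -0.54 (adjusted p = 0.00989) and -0.61 (adjusted p = 0.00779), and both were called higher with abundance offsets, at 0.51 (adjusted p = 0.0027) and 0.40 (adjusted p = 0.0117). Without sham replicate 1, Rpl5 was at -0.44 with an adjusted p of 0.228.

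Rps14, a small-subunit protein of the platform, and Rpl37, a large-subunit protein, had overlapping groups per tube. Rps14 had 350 and 268 UMIs against 288 and 300 UMIs, and Rpl37 had 284 and 330 UMIs against 320 and 262 UMIs. Relative to other transcripts both fell, by 1.02 ± 0.17 (adjusted p = 0.000158) and by 1.01 ± 0.19 (adjusted p = 0.000512) on the log2 TMM scale. With abundance offsets neither was called, at -0.03 (adjusted p = 0.879) and -0.04 (adjusted p = 0.853).

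Rps6 was the RP gene with the largest rise. It encodes the small-subunit protein that S6 kinases phosphorylate downstream of mTORC1. Rps6 had 3 and 6 UMIs in the sham libraries and 27 and 44 UMIs in the overload libraries, so both overload libraries stood above both sham libraries. The log2 fold change was 1.99 ± 0.45 on the TMM scale (adjusted p = 0.00187) and 2.95 ± 0.51 in UMIs per tube (adjusted p = 0.000184). It had under 10 UMIs in both sham libraries and so passed the filter on low counts through the overload libraries only, the 1 tested RP gene of which this is true. Leaving out 1 library at a time gave TMM values from 1.55 to 2.59, all past the threshold, and DESeq2 gave an adjusted p of 0.0469. Of the start positions of 50-base stretches in the last 200 bases of Rps6 transcripts, 72.2% are shared with other genes, 10 in number, so an unknown part of its reads could be lost or assigned elsewhere.

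Rps27l, a paralog of Rps27 known as a target of p53, was the other RP gene that rose on the TMM scale. It had 48 and 37 UMIs in sham and 124 and 128 UMIs in overload. Its log2 fold change was 0.61 ± 0.20 on the TMM scale (adjusted p = 0.0214) and 1.57 ± 0.25 in UMIs per tube (adjusted p = 0.0001), and its transcript end shares no 50-base stretch with another gene. The TMM call was not made by DESeq2 (0.62, adjusted p = 0.195) or without sham replicate 2 (0.47, adjusted p = 0.182).

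Rps27 itself had 107 and 82 UMIs in sham and 102 and 113 UMIs in overload, with overlapping groups. There were 0.449 and 0.451 Rps27l UMIs per Rps27 UMI in sham and 1.22 and 1.13 in overload (exact permutation test, two-sided, p = 0.33). All 50-base stretches of the end of Rps27 are shared with other genes, so its level is uncertain.

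Rpl14 and Rps21 fell on every scale that was tested. Rpl14, a large-subunit protein, had 251 and 235 UMIs in sham and 203 and 147 UMIs in overload. Rps21, a small-subunit protein, had 336 and 316 UMIs in sham and 248 and 250 UMIs in overload. In both genes each overload library was below each sham library even before scaling. Their calls per tube were lost without sham replicate 1, without sham replicate 2 or without overload replicate 2, when no RP gene passed as lower per tube (edgeR).

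Their log2 fold changes per tube were -0.47 ± 0.18 (adjusted p = 0.0275) and -0.39 ± 0.14 (adjusted p = 0.025). On the TMM scale they were -1.40 ± 0.21 (adjusted p = 4.81e-05) and -1.34 ± 0.17 (adjusted p = 8.46e-06). Rpl14 shares no 50-base stretch with another gene, and Rps21 shares 19.9% of them.

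The other named falls on the TMM scale were not calls per tube. Rpl35a, a large-subunit protein, had 122 and 105 UMIs against 82 and 100 UMIs, with a log2 fold change of -1.28 ± 0.17 on the TMM scale (adjusted p = 1.87e-05) and -0.32 ± 0.22 per tube (adjusted p = 0.217). Rpl10, which completes the large subunit late in its assembly, had 165 and 174 UMIs against 148 and 121 UMIs, with a log2 fold change per tube of -0.33 ± 0.18 (adjusted p = 0.126). Every 50-base stretch of the Rpl10 end is shared with other genes. Rpl36a-ps1, annotated as protein-coding although named as a pseudogene, had 21 and 36 UMIs against 29 and 12 UMIs, with groups that overlapped in UMIs but not after TMM scaling. It was at -1.41 ± 0.42 on the TMM scale (adjusted p = 0.0117) and at -0.75 without overload replicate 2, where the adjusted p was 0.123.

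**Figure D3:**
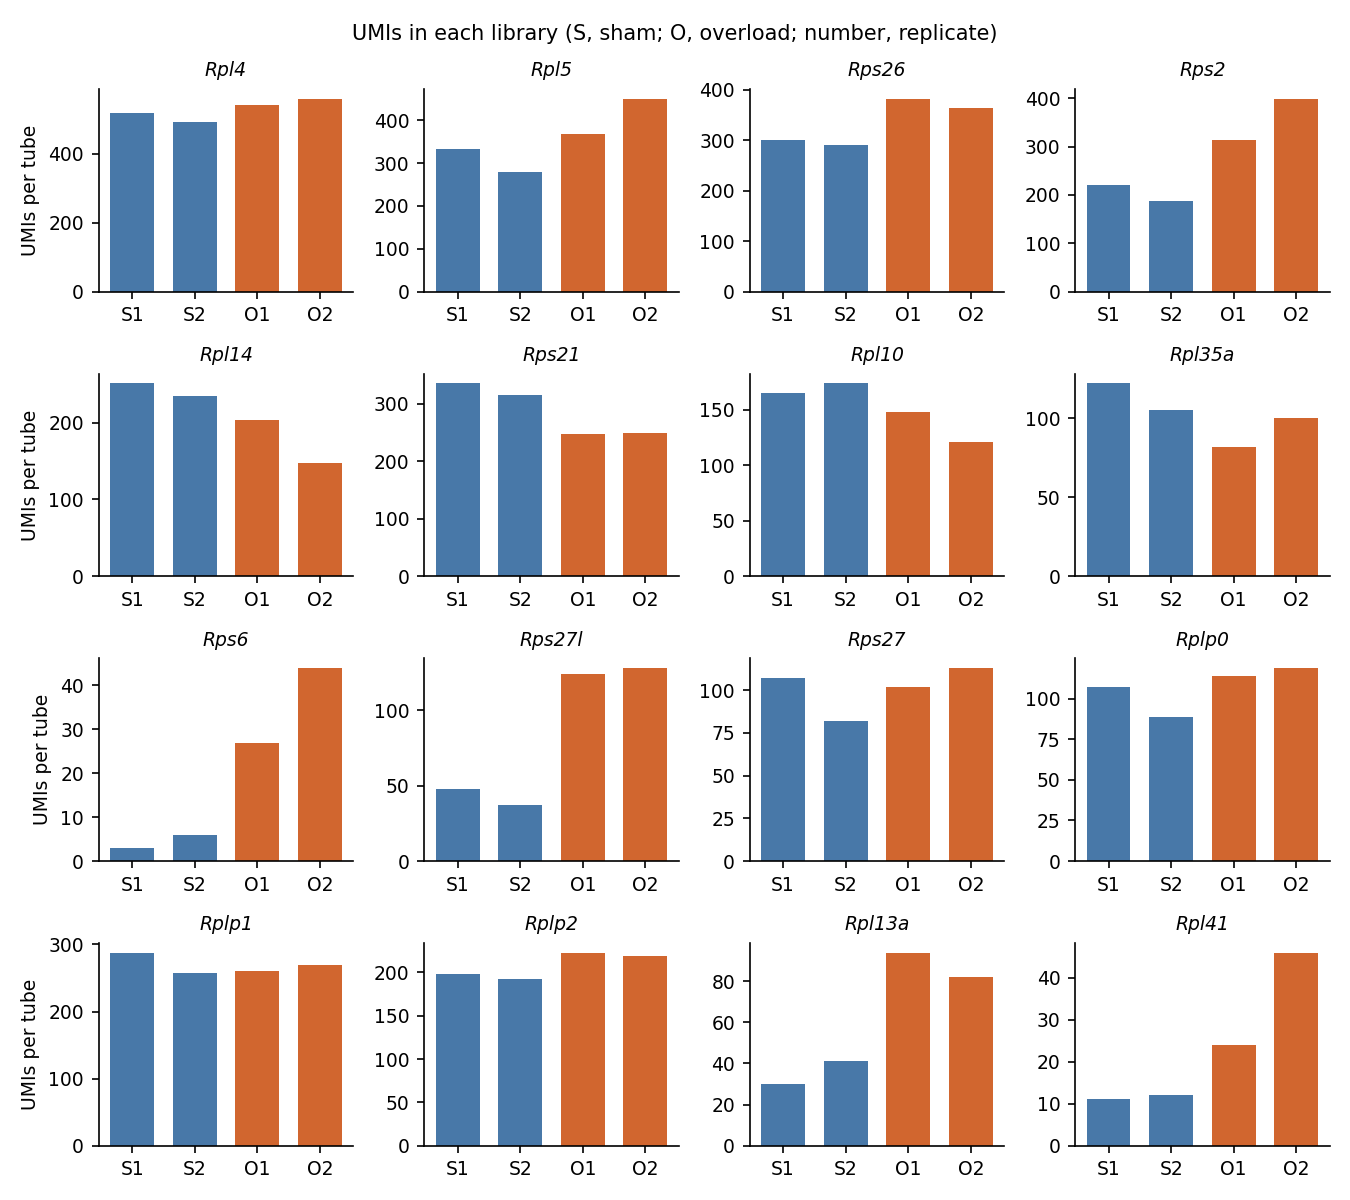
UMIs per tube in each library for 16 RP genes, with sham libraries in blue and overload libraries in orange, each vertical axis starting at 0 and scaled to its gene. Rpl4 was nearly level, Rps6 and Rps27l stood higher in both overload libraries, and Rpl14 and Rps21 stood lower in both.

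The stalk proteins, which recruit elongation factors to the large subunit, moved like the family. Rplp0, the base of the stalk, had 107 and 89 UMIs in sham and 114 and 119 UMIs in overload. Rplp1 had 288 and 258 UMIs against 261 and 270 UMIs, with overlapping groups, and Rplp2 had 198 and 192 UMIs against 223 and 219 UMIs. None passed the test per tube, with log2 values of 0.25 ± 0.21, -0.04 ± 0.15 and 0.18 ± 0.16. All 3 fell on the TMM scale, where 26.3% of all genes were lower, with adjusted p-values between 0.000137 and 0.00417. With abundance offsets none was called, at -0.13 (adjusted p = 0.579) for Rplp0, -0.04 (adjusted p = 0.851) for Rplp1 and 0.10 (adjusted p = 0.608) for Rplp2.

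Apart from Rps27 and Rps27l, the listed paralog of each RP gene had fewer UMIs than the common gene. Rpl3, which helps to form the peptidyl transferase centre, had 137 and 120 UMIs against 130 and 122 UMIs, while its striated muscle paralog Rpl3l had 1 and 0 UMIs against 2 and 6 UMIs. Rpl22 had 198 and 166 UMIs against 222 and 189 UMIs, and its paralog Rpl22l1 had 3 and 1 UMIs against 1 and 5 UMIs. Rpl36a had 159 and 161 UMIs against 141 and 138 UMIs, and Rpl36al had 0 and 1 UMIs against 1 and 0 UMIs. Every 50-base stretch of the Rpl36a end is shared with other genes, as are 50.3% of those of Rpl36al, so their levels are uncertain. The paralogs Rpl3l, Rpl22l1 and Rpl36al were too low to be tested.

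Rpl7, a large-subunit protein, had 121 and 107 UMIs against 101 and 121 UMIs. Rpl7l1 had 25 and 21 UMIs against 33 and 52 UMIs, higher in both overload libraries, and rose per tube by 0.88 ± 0.37 (adjusted p = 0.0482) but not on the TMM scale (-0.08, adjusted p = 0.832). Rpl39, which lines the exit tunnel, had 143 and 138 UMIs against 132 and 119 UMIs, and the X-linked Rps4x had 30 and 18 UMIs against 29 and 26 UMIs. Neither of these passed the test per tube, with log2 values of -0.16 ± 0.19 and 0.20 ± 0.39.

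Relative to the RP total, 19 RP genes were higher, where 59.9% of all genes were, and 11 were lower, where 5.53% of all genes were. The family median is near 0 on this scale by construction. Behind Rps6, large rises were those of Rpl41, the smallest ribosomal protein, with 11 and 12 UMIs against 24 and 46 UMIs, and of Rps27l. Rpl13a, a large-subunit protein also known for translational silencing of interferon-response mRNAs, also rose, with 30 and 41 UMIs against 94 and 82 UMIs. In each of these genes both overload libraries exceeded both sham libraries.

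The log2 values relative to the RP total were 1.52 ± 0.44 for Rpl41, 1.49 ± 0.26 for Rps27l and 1.23 ± 0.30 for Rpl13a. Among genes past the threshold, the 5 largest falls were those of Rpl14, Rps21, Rpl10, Rps3, a protein at the mRNA entry with 177 and 178 UMIs against 157 and 126 UMIs, and Rps24, with 197 and 190 UMIs against 160 and 149 UMIs. Without sham replicate 1 the counts were 11 higher and 2 lower, without sham replicate 2 they were 7 higher and 2 lower, and 20 genes were lower without overload replicate 1.

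The change of an RP gene in UMIs per tube went with its count, which can fall short of its abundance where the transcript end is shared. Across the 81 tested RP genes, the Spearman correlation of the shared percent with the mean count was -0.25. With the log2 fold change per tube it was -0.07. The part of shared ends in the relation with count was not tested. The 54 RP genes with a mean of at least 100 UMIs per library, a split chosen after the values were seen, held 89.7% of the RP UMIs of the sham libraries. They summed to 9947 and 9571 UMIs in sham and 9726 and 9642 UMIs in overload, 3 of them rose per tube, and their median log2 fold change was -0.05. The 34 others summed to 1175 and 1058 UMIs in sham and to 1648 and 1871 UMIs in overload, and 17 of the 27 tested rose, with a median of 0.74, a share of rises close to the 62% over all tested genes.

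Rps2, a small-subunit protein near the mRNA entry, had the largest rise per tube among the abundant RP genes. It had 221 and 187 UMIs in sham and 313 and 399 UMIs in overload and rose per tube by 0.80 ± 0.16 (adjusted p = 0.00053). Together with Rpl5 and Rps26, Rps2 made up the 3 abundant RP genes that rose per tube. The RP genes of lower count that rose included Rpsa, also known as the laminin receptor, with 59 and 48 UMIs against 91 and 103 UMIs, Rps3a1, a small-subunit protein, with 41 and 31 against 69 and 93 UMIs, and Rps23, a protein of the decoding centre, with 35 and 30 against 66 and 92 UMIs. On the TMM scale Rpsa (-0.10), Rps3a1 (0.21) and Rps23 (0.31) were not called, and 67.5% of the stretches of the Rps3a1 end are shared. Rps2, Rpsa, Rps3a1 and Rps23 were named after their values were seen.

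Other genes also changed less per tube when their counts were high. The Spearman correlation of mean count with the log2 fold change per tube was -0.47 across the 81 RP genes and -0.26 across the 7147 other tested genes, as a description over genes of the same libraries. Between 100 and 200 UMIs, 40 RP genes had a median of -0.07 per tube with 0 rises and 0 falls (edgeR), and 510 other genes had a median of 0.32 with 45.7% rising. On the TMM scale all 40 of these RP genes were lower, as were 64.7% of the 510 others. At 200 UMIs or more the medians per tube were 0.04 for 14 RP genes and 0.16 for 121 other genes, and between 50 and 100 UMIs they were 0.69 for 16 RP genes and 0.79 for 1229 other genes.

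**Figure D4:**
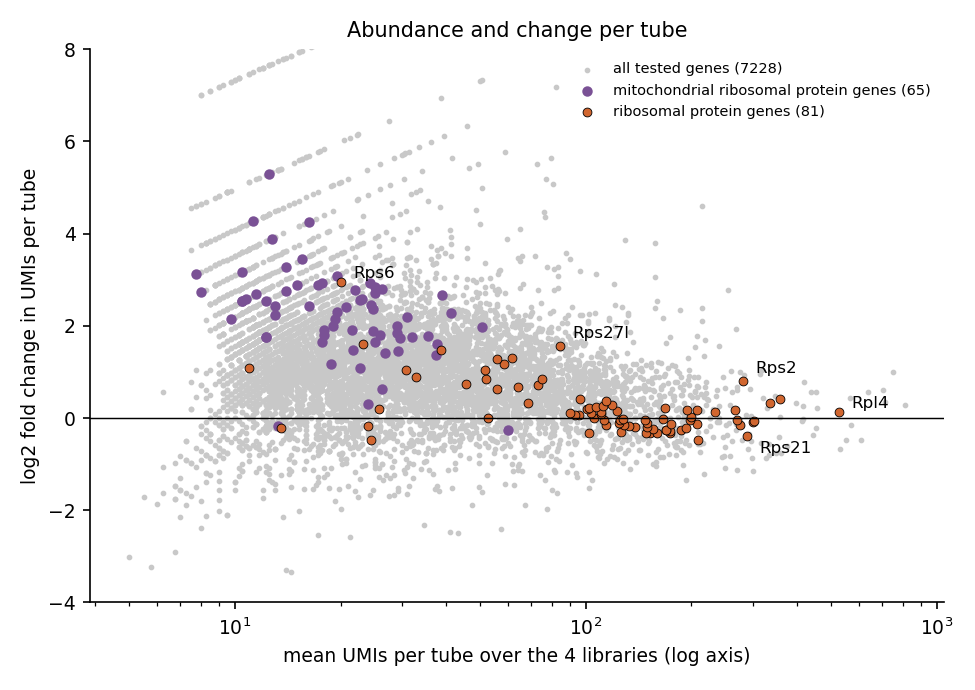
Mean UMIs per tube over the 4 libraries (log axis) against the log2 fold change in UMIs per tube for 7228 tested genes (grey), 65 mitochondrial RP genes (purple) and 81 RP genes (orange); 15 genes lie outside the vertical range. Apart from Rps2 at 0.80, RP genes with a mean of 100 UMIs or more lie between -0.47 and 0.42, and between 100 and 200 UMIs their median of -0.07 lies below the 0.32 of other genes.

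The highest count of an RP gene in any library was 559, below the number of sequences that a UMI of 6 bases allows. Correcting each count for UMIs drawn more than once left the number of lower RP genes on the TMM scale at 63, as did a correction chosen after seeing the data that takes 1200 as the most a gene could count. The log2 change of summed RP UMIs per tube was 0.074 as counted, 0.075 with the former and 0.079 with the latter. Whether other losses at high counts took part in the relation with abundance was not tested.

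RP pseudogenes can take up or give away reads of RP genes. The 198 pseudogene rows with RP names summed to 994 and 1221 UMIs in sham and 1078 and 916 UMIs in overload, with overlapping groups. Of the 88 RP genes, 57 share at least 1 stretch of 50 bases in the transcript end with another annotated gene, and 5 share all of them. Tested RP genes with a shared end had a median log2 fold change of 0.01 per tube (52 genes) and those without had 0.13 (29 genes). In addition, 28 RP genes overlap another gene, 23 of them on the opposite strand, and 30 hold a small nucleolar RNA gene, and the strand setting of the counting is not given in the sources used here.

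Besides the paralogs, 4 RP genes were too low to be tested. Rps10 had 6 and 4 UMIs in sham and 8 and 3 UMIs in overload. Rpl23a had 6 and 3 UMIs against 8 and 6 UMIs. Rpl9-ps6 had 1 and 7 UMIs against 2 and 0 UMIs, and Rpl9-ps1 had 1 and 1 UMIs against 0 and 3 UMIs.

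Fau and Rack1, ribosomal components outside the name rule, behaved like the RP genes. Fau, whose product is cleaved to a small-subunit protein, was lower on the TMM scale (-1.16) and not called per tube (-0.20, adjusted p = 0.412). Rack1, a scaffold on the small subunit, had 277 and 284 UMIs against 312 and 275 UMIs, was lower on the TMM scale (-0.87) and was not called per tube (0.07, adjusted p = 0.703). On the TMM scale 26.3% of all genes were lower. With abundance offsets 1 of these 2 genes was lower, where 21.6% of all genes were, and their median was -0.22.

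Other mRNAs with a TOP motif, mostly translation factors, had medians on the same side of all genes as the RP genes. On the TMM scale 9 of 13 were lower, where 26.3% of all genes were, and 0 were higher (edgeR), with a median of -0.59. With abundance offsets 1 was lower, where 21.6% of all genes were, and 2 were higher, where 20.7% of all genes were. The list median was then -0.04, so the lower calls depended on the scaling. Per tube 6 rose, where 62% of all genes did, and 0 fell, with a median of 0.37. Eef2, the elongation factor that moves the ribosome along the mRNA, had 291 and 293 UMIs in sham and 240 and 246 UMIs in overload and fell by 1.21 on the log2 TMM scale. Eef1a1, which brings aminoacyl-tRNA to the ribosome, had 110 and 56 UMIs against 156 and 136 UMIs and rose per tube by 0.81 (adjusted p = 0.011). The list summed to 1548 and 1439 UMIs in sham and to 1727 and 1842 UMIs in overload.

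Nucleolar genes of ribosome assembly and ribosomal RNA synthesis were called about as often as other genes. Of 27 tested, 6 were higher and 8 lower on the TMM scale, where 25.8% and 26.3% of all genes were, and per tube 16 rose and 1 fell, where 62% and 4.58% of all genes did, with a median of 0.78. Bop1 and Pes1, partners in large-subunit assembly, rose on the TMM scale by 1.27 (adjusted p = 0.002) and 1.16 (adjusted p = 0.013), and Rrn3, an initiation factor of RNA polymerase I, by 0.78 (adjusted p = 0.019). Nop58, a core protein of the snoRNPs that methylate ribosomal RNA, fell, with 193 and 202 UMIs in sham and 120 and 128 UMIs in overload and a log2 value of -1.63.

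A further list held genes of mTORC1 signalling and genes with S6 kinase and Larp names. Of the 14 tested, 4 were higher and 4 lower on the TMM scale, near the shares of 25.8% and 26.3% over all genes. Higher were Eif4ebp1 and Eif4ebp2, the repressors of cap-dependent translation, at 1.07 and 1.08, Mtor at 1.02 and Rragc, a Rag GTPase, at 0.99. Lower were the cap-binding gene Eif4e at -1.46, the kinase genes Rps6ka3 and Rps6kb1 at -1.04 and -0.77, and Larp4 at -0.69. Per tube 8 rose and 0 fell (edgeR), where 62% of all genes rose. Myc, a transcriptional activator of ribosome biogenesis, had 164 and 160 UMIs in sham and 99 and 120 UMIs in overload and fell per tube by 0.56 (adjusted p = 0.0179). Of the 7 tested genes of the Myc network, Myc was the 1 that fell per tube, where 4.58% of all genes fell. A rise per tube was found in 4, where 62% of all genes rose, and the list median was 0.86. On the TMM scale 0 were higher and 2 lower (edgeR), where 25.8% and 26.3% of all genes were, and the list median was -0.09.

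Genes for the proteins of the mitochondrial ribosome, which makes the proteins encoded in mitochondrial DNA, were mostly higher in overload. The 75 mitochondrial RP genes summed to 601 and 612 UMIs in sham and to 2035 and 2637 UMIs in overload, 3.85-fold more. For each of their UMIs there were 18.5 and 17.4 cytosolic RP UMIs in sham and 5.59 and 4.37 in overload (exact permutation test, two-sided, p = 0.33). Without a filter on low counts, 53 of the 75 were higher on the TMM scale, where 12.7% of all genes were, and 2 were lower, where 9.32% of all genes were. The cytosolic RP genes had 2 higher and 63 lower in that fit. UMIs per tube were higher with no overlap in 71 of the 75, against 46.1% of all genes. The filter kept 65, of which 38 had under 10 UMIs in both sham libraries and were kept through the overload libraries only. The medians of those 65 were 1.35 on the TMM scale and 2.30 per tube. For all 75 without the filter they were 1.48 and 2.36.

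Mrpl3, a large-subunit protein of that ribosome, had 11 and 10 UMIs in sham and 56 and 79 UMIs in overload and rose by 1.71 on the TMM scale. Of the 65, 51 were higher on the TMM scale, where 25.8% of all genes were. As given above, 38 of the 65 were kept through the overload libraries only. The 3 that were lower, where 26.3% of all genes were, were Mrps6, with 71 and 60 UMIs against 51 and 58 UMIs, Mrpl23 and Mrpl48. With abundance offsets the median of the 65 was 0.74. Mitochondrial RP genes were counted at lower levels than cytosolic ones. At means of 20 to 50 UMIs the cytosolic RP genes had a median of 0.88 per tube (9 genes), against 1.10 for all other genes there. The genes of mitochondrial DNA itself summed to 5129 and 4782 UMIs in sham and 6488 and 7215 UMIs in overload.

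**Figure D5:**
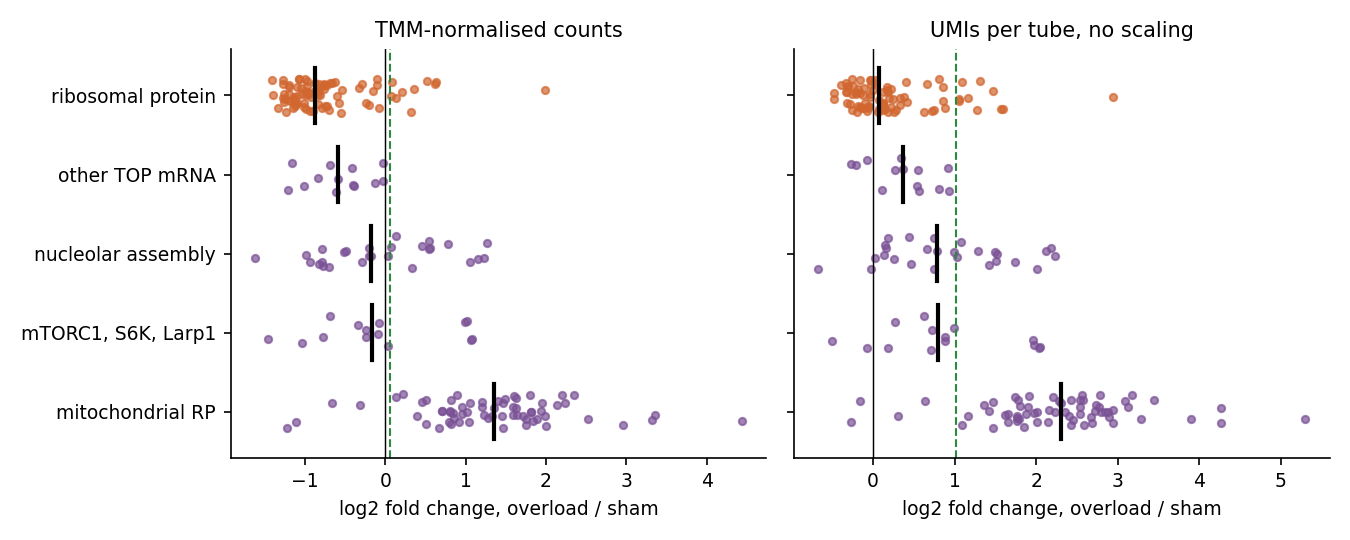
Log2 fold change (overload over sham) of each tested gene in 5 lists on the TMM scale (left) and in UMIs per tube (right). Thick lines are list medians, from -0.88 and 0.07 for RP genes to 1.35 and 2.30 for mitochondrial RP genes, and the dashed line is the median of all tested genes.

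Summed markers of each of the other cell types listed were higher in both overload libraries than in both sham libraries, in UMIs and as a share of the library. The 12 leukocyte markers summed to 2 and 6 UMIs in sham and to 84 and 216 UMIs in overload, the most abundant being Lyz2 with 0 and 0 against 17 and 38 UMIs, while the defining marker Ptprc had 0 and 1 against 1 and 4 UMIs. Myofiber markers, of which 8 of 9 are in the table, summed to 326 and 175 against 1082 and 1281 UMIs and were led by Acta1, and Myh1 and Myh2 were at 0 in 3 of the 4 libraries. Mural markers (7 genes, led by Acta2) summed to 177 and 154 against 463 and 679 UMIs, fibro-adipogenic markers (6 genes, led by Col3a1) to 881 and 796 against 1543 and 1679 UMIs, and endothelial markers (7 genes, led by Tek) to 29 and 19 against 48 and 66 UMIs. As a share of the library (in CPM, UMIs scaled to the same total in each library), leukocyte markers went from 7.42 and 23.0 to 217 and 447, myofiber markers from 1209 and 672 to 2789 and 2649, and mural markers from 656 and 591 to 1193 and 1404, while fibro-adipogenic markers were at 3267 and 3056 against 3977 and 3472 and endothelial markers at 108 and 72.9 against 124 and 137. On the TMM scale (edgeR), 5 of 5 tested myofiber markers, 2 of 3 mural markers and 1 of 4 fibro-adipogenic markers were higher, where 25.8% of all genes were, and 1 mural, 2 fibro-adipogenic and 1 of 2 endothelial markers were lower, where 26.3% of all genes were. The 2 leukocyte markers that passed the filter on low counts did so through the overload libraries only. Their part in the RP values was not tested.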

How the data were processed

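MuSCs were profiled by CEL-Seq2 in 4 libraries. Per the labels and the study's methods, the authors extracted UMIs with UMI-tools (version 1.0.0), aligned reads to GRCm38 with HISAT2 (2.1.0), assigned them with featureCounts (1.6.4), collapsed UMIs by the directional method, and deposited UMI counts per gene without normalization. They tested genes with DESeq2 (1.22.2) at an adjusted p of 0.1. Handling of multi-mapped reads and strand is not given in the sources used here. Reads that map to several places are at risk of being dropped or misassigned, which bears on RP genes with pseudogenes.

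Genes were kept by filterByExpr (minimum count 10, minimum total 15), which left 7228, and tested with edgeR (version 4.0.16, R 4.3.3) by glmQLFit and glmQLFTest with both groups sharing 1 estimate of spread. TMM factors were 0.909 and 0.908 for sham and 1.08 and 1.12 for overload. Benjamini-Hochberg adjustment ran over all genes tested, whose common biological coefficient of variation was 9.50%. At an unadjusted p of 0.05, 3732 genes passed. The prior count was 0.125. Standard errors are the log2 fold change over the root of the F statistic. Library totals set the depth. A floor of 3 UMIs was set for reading a count as above 0, but the fits and the overlap counts applied no such floor.

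Named genes were the 5 most abundant RP genes, up to 5 with the largest rise and fall past the threshold with no overlap between groups, the stalk genes, paralog pairs, up to 5 in each direction relative to the RP total, and those not tested. A few genes that this rule or the lists hold are counted but not reported here by name. The genes and lists were chosen with earlier results of these data known. Gene positions and shared transcript ends came from GENCODE M21, whose identifiers matched all 19353 genes of the table, 19331 with the same name. Other steps used Python 3.11.15, numpy 2.4.6, pandas 2.3.3, scipy 1.17.1 and matplotlib 3.10.9. Alternatives were other scalings, filters and thresholds, DESeq2 (1.42.0), a replicate block, count corrections and each library left out.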

Additional observations from a re-analysis of the deposited data

How the results depend on the processing

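On the TMM scale 63 RP genes were lower and 2 higher. In UMIs per tube 2 were lower and 20 higher, and with abundance offsets 28 lower and 7 higher. With library sizes alone 7 were higher, with DESeq2 1, and with at least 10 counts in every library 5. Among RP genes with no shared transcript end, a choice made after seeing the data, 22 were lower and 1 higher. The median of -0.88 was -0.63 with library sizes alone, 0.070 per tube, -0.23 with offsets and -0.62 with at least 10 counts in every library. Over all genes, 1898 lower and 1868 higher became 331 and 4481 per tube, 1049 and 762 with DESeq2, and 1190 and 1154 with at least 10 counts. At an adjusted p of 0.05, the 7 RP genes higher as share of library became 4 and the 11 lower relative to the RP total became 5. The cause of these changes was not tested.

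Leaving out each library in turn gave 57 to 63 lower and 2 to 3 higher on the TMM scale. It gave 3 to 5 higher as share of library, 3 to 15 higher and 0 to 8 lower per tube, and 7 to 23 higher and 2 to 20 lower relative to the RP total. Whether libraries with the same replicate number share a mouse is not given in the sources used here. Their deviations did not go together (r = -0.03 between the within-group differences across genes), and the numbers were not used as pairs. With the replicate block 63 RP genes were lower on the TMM scale, and 7, not 11, were lower relative to the RP total.

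Among named genes with a negative value on the TMM scale, the log2 value per tube was 0.13 for Rpl4, 0.42 for Rpl5, 0.33 for Rps26, 0.25 for Rplp0, 0.18 for Rplp2, 0.18 for Rpl22, 0.19 for Rps27, 0.88 for Rpl7l1 and 0.20 for Rps4x. With offsets it was 0.34 for Rpl4, 0.51 for Rpl5, 0.40 for Rps26, 0.10 for Rplp2 and 0.070 for Rpl22, the first 3 past the threshold as higher. Rpl7l1 was at 0.16 with library sizes alone, 0.011 with upper-quartile factors, 0.19 with at least 10 counts in every library and from -0.25 to 0.058 with each library left out, above 0 without sham replicate 1 (0.019) and without overload replicate 1.

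With 2 libraries a group, exact permutation tests could not go below p = 0.33. Without the filter on low counts, 8 RP genes were higher and 1 lower per tube, where 16.4% and 0.827% of all genes were. Where leaving out a library left 1 in its group, that library was assumed to vary like the other group.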
